A study of Homo sapiens with 10 samples.

Results

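Occupancy by ZMYND8 in HEK293 cells was examined at 9 genes of DNA double-strand break repair, BRCA1, BRCA2, PALB2, RBBP8, MRE11, RAD50, NBN, ATM and PARP1. They were taken as a list of names, drawn up with earlier results of these data known, and form 9 of the 20098 protein-coding genes of the autosomes and the X chromosome. HEK293 is an established line of human embryonic kidney cells. ChIP-seq sequences the DNA that is precipitated with a protein from crosslinked chromatin, which was digested here with micrococcal nuclease. A peak is a stretch of the genome where the authors' software found more of that DNA than background. The series has 10 samples, and the data used here are 1 peak list for each of 2 ChIPs. Each ChIP has 2 replicate samples, and how these were combined into a list is not given in the sources used here. The ZMYND8 list comes from an antibody to the protein itself. Its labels describe Flp-In T-REx HEK293 cells with a stable 3xFLAG-ZMYND8 transgene, full-length or carrying the N228F change in the bromodomain, and do not say which of these was used. The FLAG-ZMYND8 list comes from anti-FLAG ChIP in cells of the same Flp-In T-REx line with an inducible, full-length 3xFLAG-ZMYND8, and 10 nM doxycycline was given so that the tagged protein was overexpressed. Samples of H3K14ac, H3K27ac and input chromatin were not used here.

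The ZMYND8 list holds 15086 peaks and the FLAG-ZMYND8 list 63690. The score is 1 in every row of both, so peak width is the only measure of size, and 53.0% and 54.7% of the peaks sit at the minimum width of their list, 151 and 167 bp. Without read counts in the lists the depth is unknown, and without named replicates no value below has an error between replicates and no test between the ChIPs was possible. An absent peak means only that the site did not pass the authors' threshold.

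Double-strand breaks are sensed by the MRN complex of MRE11, RAD50 and NBN, which activates the kinase ATM. In homologous recombination the broken ends are then trimmed by MRN with the cofactor CtIP, the product of RBBP8, and BRCA1, PALB2 and BRCA2 act in turn to prepare the single-stranded DNA for the search for an intact copy. PARP1 marks breaks with chains of ADP-ribose. ZMYND8 itself is a reader of modified histones that is recruited to damaged chromatin, and the labels name no DNA-damaging treatment of these cells.

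At the transcription start site (TSS), here the start of the reference transcript of a gene, ZMYND8 was found at 7 of the 9 genes, all but ATM and PARP1. A peak was counted when its midpoint was no more than 3 kb away, and the share over all protein-coding genes was 35.2%. A FLAG-ZMYND8 peak lay there at 9 of 9, against 59.6% of all genes. Both lists had a peak at 7 of the 9 TSSs, against 30.4% of all genes. With only peaks wider than the minimum of their list, ZMYND8 was left at 4 genes and both lists at 3, against 23.7% and 18.9% of all genes, and within 500 bp both were found at 4, against 16.5%. Each of the 7 genes had exactly 1 ZMYND8 peak, whereas the number of FLAG-ZMYND8 peaks ran from 1 at BRCA1, BRCA2, RBBP8, NBN and PARP1 through 2 at PALB2, ATM and MRE11 to 3 at RAD50. Over all genes, 3.55% had more than 1 ZMYND8 peak and 33.6% more than 1 FLAG-ZMYND8 peak at the TSS.

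**Figure D1:**
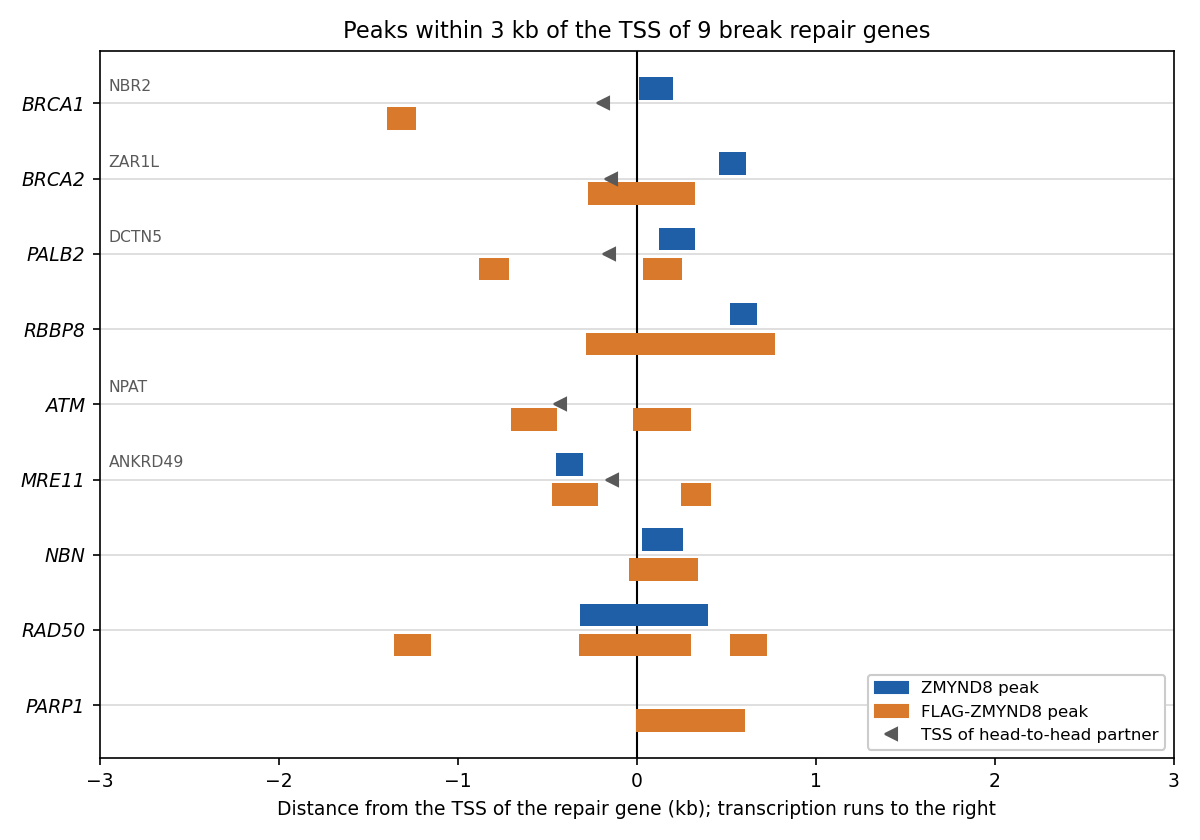
Peaks of both lists around the TSS of each of the 9 repair genes, drawn to scale; the x axis is the distance from the TSS in kb, blue bars are ZMYND8 peaks, orange bars FLAG-ZMYND8 peaks, and grey arrowheads mark the TSS of a head-to-head partner. ZMYND8 peaks are present at 7 genes and all have their midpoints within 1 kb of the TSS, and ATM and PARP1 carry FLAG-ZMYND8 peaks only.

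BRCA1, the scaffold that promotes end trimming and recruits PALB2, spans 41196312 to 41277381 of chromosome 17, minus strand (hg19, as for all coordinates). Its ZMYND8 peak of 190 bp, from 41277180 to 41277369, lay 107 bp downstream of the TSS in intron 1. Distances from a TSS are those of the midpoint of the peak throughout. The only FLAG-ZMYND8 peak within 3 kb, from 41278612 to 41278778, lay on the other side, 1314 bp upstream of the BRCA1 TSS and 1242 bp from the edge of the ZMYND8 peak, and was at the minimum width. BRCA1 was the only one of the 9 genes with no FLAG-ZMYND8 midpoint within 1 kb of its TSS. It shares its promoter with NBR2, a long noncoding RNA gene that starts 187 bp upstream on the plus strand, so the FLAG-ZMYND8 peak lay 1127 bp inside NBR2. The reference sequences of the part of the ZMYND8 peak outside the untranslated first exon and of the stretch between the BRCA1 and NBR2 starts are shown for comparison, since the peak lay beside and not in the shared stretch. Capitals mark any match to the promoter motifs described further on, and all sequences are read 5′ to 3′ on the strand of the repair gene from the GRCh37 genome.
BRCA1 ZMYND8 peak, chr17:41277180-41277287, minus strand: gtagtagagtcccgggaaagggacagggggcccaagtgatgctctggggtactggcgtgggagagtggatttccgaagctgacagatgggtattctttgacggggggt
BRCA1 to NBR2, chr17:41277382-41277567, minus strand: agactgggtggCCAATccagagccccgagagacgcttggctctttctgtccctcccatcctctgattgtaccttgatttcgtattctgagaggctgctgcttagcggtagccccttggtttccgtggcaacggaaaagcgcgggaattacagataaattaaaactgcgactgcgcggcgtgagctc

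BRCA2, which acts on the resected ends after PALB2, spans 32889645 to 32974405 of chromosome 13, plus strand. A ZMYND8 peak of the minimum width, 32890106 to 32890256, lay 536 bp downstream of the TSS in intron 1. The FLAG-ZMYND8 peak, 598 bp wide from 32889372 to 32889969, covered the BRCA2 TSS and also that of ZAR1L, a protein-coding gene that starts 145 bp upstream on the other strand. It was wider than 94.1% of its list. The peaks did not overlap and were 136 bp apart. The ZMYND8 peak is shown because it is the most AT-rich of the members' peaks at TSSs, at 47.0% GC and with 6 CpG sites, beside the shared start region at 64.6% GC and with 16.
BRCA2 ZMYND8 peak, chr13:32890106-32890256, plus strand: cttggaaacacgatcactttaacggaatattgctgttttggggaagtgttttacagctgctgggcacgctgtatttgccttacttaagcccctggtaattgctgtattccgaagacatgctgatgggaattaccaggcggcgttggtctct
BRCA2 to ZAR1L, chr13:32889501-32889644, plus strand: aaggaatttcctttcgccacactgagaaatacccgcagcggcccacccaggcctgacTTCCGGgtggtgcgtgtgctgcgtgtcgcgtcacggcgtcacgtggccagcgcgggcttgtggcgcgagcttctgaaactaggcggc

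PALB2, the bridge between BRCA1 and BRCA2, spans 23614486 to 23652631 of chromosome 16, minus strand. Its 201 bp ZMYND8 peak, 23652306 to 23652506, was centred 225 bp downstream of the TSS in intron 1. It shared 130 bp with the FLAG-ZMYND8 peak from 23652377 to 23652598, 222 bp wide and centred 144 bp downstream in the untranslated part of exon 1. A further FLAG-ZMYND8 peak at the minimum width lay 799 bp upstream, which is 643 bp inside DCTN5, a dynactin subunit gene that starts 156 bp from PALB2 on the other strand. Both ChIPs thus had a peak centred just downstream of the PALB2 TSS. The peak is shown from the start codon on, and it holds a GGGCGG, as the RBBP8 peak that follows does on the other strand.
PALB2 ZMYND8 peak, chr16:23652306-23652478, minus strand: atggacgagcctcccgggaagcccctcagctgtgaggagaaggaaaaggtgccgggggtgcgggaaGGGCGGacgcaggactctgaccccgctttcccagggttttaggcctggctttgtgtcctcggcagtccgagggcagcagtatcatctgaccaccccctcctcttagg
PALB2 to DCTN5, chr16:23652632-23652786, minus strand: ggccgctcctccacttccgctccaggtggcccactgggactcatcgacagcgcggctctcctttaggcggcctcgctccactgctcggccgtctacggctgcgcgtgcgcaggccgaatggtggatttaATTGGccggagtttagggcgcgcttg

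RBBP8 spans 20513291 to 20606449 of chromosome 18, plus strand, and has no head-to-head partner. Its TSS lay under the widest FLAG-ZMYND8 peak found at the 9 TSSs, 1058 bp from 20513007 to 20514064, which ranked 960 of 63690 by width. The midpoint of this peak was 244 bp from the RBBP8 TSS and 192 bp from a transcript start of a long noncoding RNA gene. The ZMYND8 peak from 20513811 to 20513961 was at the minimum width, lay 595 bp downstream in intron 1 and was contained whole in the FLAG-ZMYND8 peak. RBBP8 therefore combined a wide FLAG-ZMYND8 peak with a narrow ZMYND8 peak at its downstream end.
RBBP8 ZMYND8 peak, chr18:20513811-20513961, plus strand: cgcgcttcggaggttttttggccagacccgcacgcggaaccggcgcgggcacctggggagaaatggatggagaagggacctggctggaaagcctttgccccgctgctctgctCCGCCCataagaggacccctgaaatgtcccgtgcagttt

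MRE11, the nuclease of the MRN complex, spans 94148736 to 94227010 of chromosome 11, minus strand. It was the only one of the 7 genes whose ZMYND8 peak lay upstream of its TSS, at 377 bp. That peak, 94227312 to 94227462 and at the minimum width, was 237 bp inside ANKRD49, which starts 140 bp from MRE11 on the other strand, and it was contained whole in a FLAG-ZMYND8 peak of 259 bp. A further FLAG-ZMYND8 peak at the minimum width lay 332 bp downstream in intron 1 of MRE11. The promoter was thus flanked by FLAG-ZMYND8 on both sides and by ZMYND8 on the ANKRD49 side.
MRE11 ZMYND8 peak, chr11:94227312-94227462, minus strand: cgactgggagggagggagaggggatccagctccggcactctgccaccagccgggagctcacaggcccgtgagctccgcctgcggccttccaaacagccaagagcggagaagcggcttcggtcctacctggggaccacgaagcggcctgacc
MRE11 to ANKRD49, chr11:94227011-94227149, minus strand: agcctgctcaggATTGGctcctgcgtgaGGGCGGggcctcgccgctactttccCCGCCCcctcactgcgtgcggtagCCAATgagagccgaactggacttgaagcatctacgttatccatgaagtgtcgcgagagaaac

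RAD50, the ATPase of the MRN complex, had the widest ZMYND8 peak and the most FLAG-ZMYND8 peaks of the 9 genes. The gene spans 131892669 to 131982041 of chromosome 5, plus strand. The ZMYND8 peak of 717 bp, 131892351 to 131893067, covered the TSS and was wider than 90.0% of its list. It shared 621 bp with a FLAG-ZMYND8 peak of 625 bp, 131892347 to 131892971, which is 86.6% of the one and 99.4% of the other. The starts of these peaks differed by 4 bp. Beyond them, FLAG-ZMYND8 peaks of 208 bp lay 1254 bp upstream and 625 bp downstream of the TSS. RAD50 was the only gene of the 9 at which the ZMYND8 peak covered the TSS.

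NBN, the MRN subunit that binds ATM, spans 90945559 to 90996895 of chromosome 8, minus strand. Its ZMYND8 peak of 226 bp, 90996640 to 90996865, lay 143 bp downstream of the TSS in intron 1 and was contained whole in a FLAG-ZMYND8 peak of 389 bp, 90996551 to 90996939, which covered the TSS. The midpoints of the peaks were 7 bp apart. The NBN peaks were also the richest in CpG per length of all peaks at the 9 TSSs, with 12.4 CpG per 100 bp in the ZMYND8 and 12.3 in the FLAG-ZMYND8 peak.

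ATM, the kinase that spreads the damage signal, spans 108093794 to 108239829 of chromosome 11, plus strand, and was, with PARP1, one of the pair without a ZMYND8 peak at the TSS. The nearest ZMYND8 midpoint was 101 kb upstream. FLAG-ZMYND8 peaks of 258 and 321 bp lay 576 bp upstream and 142 bp downstream of the TSS, the latter covering it from 108093776 to 108094096. NPAT, which encodes a regulator of histone gene transcription, starts 429 bp from ATM on the other strand, and the upstream peak lay 147 bp inside it. NPAT had no ZMYND8 peak within 3 kb of its own TSS either.

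PARP1 spans 226548392 to 226595794 of chromosome 1, minus strand. A FLAG-ZMYND8 peak of 607 bp, 226595192 to 226595798, covered its TSS and was wider than 94.3% of its list, so the missing ZMYND8 peak did not go with a narrow FLAG-ZMYND8 peak. The nearest ZMYND8 midpoint to the TSS was 20.5 kb upstream. The ZMYND8 list did have a peak inside the gene, at the minimum width from 226558096 to 226558246, with its midpoint 37623 bp from the TSS in coding exon 15 of 23 and 645 bp from the start of another annotated PARP1 transcript. It overlapped no FLAG-ZMYND8 peak and is shown as the one ZMYND8 peak inside the 9 genes that lay over 3 kb from the TSS.
PARP1 ZMYND8 peak, chr1:226558096-226558246, minus strand: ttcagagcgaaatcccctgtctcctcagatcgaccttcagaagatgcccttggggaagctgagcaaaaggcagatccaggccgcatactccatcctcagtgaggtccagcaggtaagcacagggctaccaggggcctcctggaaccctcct

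Head-to-head promoters, where genes on opposite strands start within 1 kb of each other and are read apart, were found at 5 of the 9 genes (BRCA1, BRCA2, PALB2, ATM and MRE11), against 19.6% of all protein-coding genes. In 4 of these the partner codes for a protein. The starts were 140 to 429 bp apart, so each peak within 3 kb of a member also lay within 3 kb of its partner, and no partner had a peak at its TSS that the member lacked. Among all genes with such a partner, 50.9% had a ZMYND8 and 78.1% a FLAG-ZMYND8 peak at the TSS, and among those without, 31.4% and 55.1%. Of the members, 4 of 5 with a partner and 3 of 4 without carried ZMYND8, and 5 of 5 and 4 of 4 carried FLAG-ZMYND8. A ZMYND8 peak therefore occurred at members of both kinds. At the 5 shared promoters, the midpoints of 3 ZMYND8 peaks lay inside the repair gene, 1 inside the partner and 0 between the starts. The 8 FLAG-ZMYND8 midpoints were divided into 4 inside the repair gene, 4 inside the partner and 0 between. Over all head-to-head promoters, 15.6% of 1595 ZMYND8 and 8.10% of 4467 FLAG-ZMYND8 midpoints fell between the starts, and with 4 and 8 midpoints the counts of 0 cannot be set against these shares.

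The lists met at 5 of the 7 genes with a peak of each, PALB2, RBBP8, MRE11, NBN and RAD50, where a ZMYND8 peak overlapped a FLAG-ZMYND8 peak by at least 1 bp. The share over all genes with a peak of each at the TSS was 69.3%. At RBBP8, MRE11 and NBN the ZMYND8 peak was contained in the FLAG-ZMYND8 peak. At BRCA1 and BRCA2 it was separate, by 1242 and 136 bp. Where each peak had to share 50% of the other, 4 of these 5 overlaps were left, all but that of RBBP8.

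Of the 7 ZMYND8 peaks at the TSSs, those of BRCA2, RBBP8 and MRE11 were at the minimum width, those of BRCA1, PALB2 and NBN measured 190, 201 and 226 bp, and that of RAD50 717 bp. Their median of 190 bp compares with 226 bp over 6831 ZMYND8 peaks at protein-coding TSSs, of which 35.9% were at the minimum. The 14 FLAG-ZMYND8 peaks ranged from 167 to 1058 bp with a median of 258.5 bp, against 231 bp over 20601 such peaks, and 3 of them were at the minimum, against 35.7%. In position, 7 of the 7 ZMYND8 midpoints lay within 1 kb of the TSS, against 82.7% of all, and 6 lay downstream, beside 64.0%. Of the FLAG-ZMYND8 midpoints, 12 of 14 lay within 1 kb, against 65.7%, and 8 downstream, beside 60.2%. These shares of all peaks use the nearest protein-coding TSS, whereas the counts use the TSS of the repair gene. The ZMYND8 peak of MRE11 and the upstream FLAG-ZMYND8 peaks of PALB2, ATM and MRE11 lay nearer to the partner and downstream of its TSS. The downstream counts can therefore not be set against the shares. Intron 1 contained 5 ZMYND8 and 6 FLAG-ZMYND8 midpoints. The TSS itself was covered by 1 ZMYND8 and 6 FLAG-ZMYND8 peaks. For intron 1 and for covering the TSS, the shares over all peaks were not counted. These counts therefore describe the repair genes only, and a difference between the ChIPs was not tested.

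**Figure D2:**
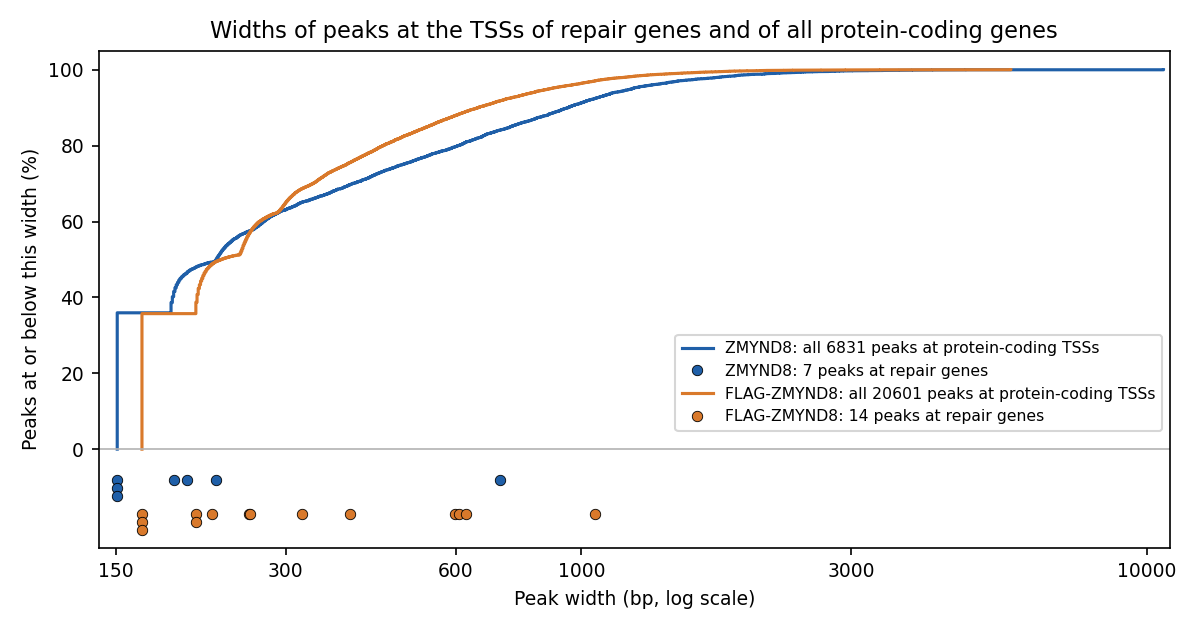
Cumulative share of peaks (y axis, %) by width (x axis, bp, log scale) for all ZMYND8 (blue line) and FLAG-ZMYND8 (orange line) peaks at protein-coding TSSs; each dot below 0 is 1 peak at a repair gene, and the height of a dot carries no value. The ZMYND8 dots lie between 151 and 226 bp except RAD50 at 717 bp, and the FLAG-ZMYND8 dots reach from 167 to 1058 bp.

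Peaks were also counted in the gene bodies over 3 kb from the TSS. The 9 genes span 38.1 kb (PALB2) to 146 kb (ATM), with 683 kb in all that lies over 3 kb downstream of the TSSs, against a median gene length of 22.7 kb over all genes. ZMYND8 had 1 peak in these 683 kb, the PARP1 exon peak, or 0.147 per 100 kb, against 0.372 over all protein-coding genes. FLAG-ZMYND8 had 6, or 0.879 per 100 kb, against 2.34. They lay in 4 of the 9 genes, against 39.1% of all genes, and for ZMYND8 1 of 9 compares with 14%. Both counts are near the shares of all genes, but these shares take no account of length. All 9 genes are longer than the median gene, and per 100 kb both lists were below the rates of all genes. The ZMYND8 rate rests on 1 peak. The FLAG-ZMYND8 count depends on the span, since the whole gene bodies held 14 peaks and the longer gene records 22. In BRCA1, FLAG-ZMYND8 peaks lay 6.38 kb from the TSS in intron 2 and 18.2 kb in intron 3. RBBP8 had 1 peak 5.96 kb from the TSS in intron 2, ATM 1 peak 109 kb from the TSS in intron 52 and 230 bp from the start of another annotated ATM transcript, and RAD50 had peaks 28.7 kb in intron 5 and 33.3 kb in intron 9. All 6 were intronic and at the minimum width, and none overlapped a ZMYND8 peak. BRCA2, PALB2, MRE11, NBN and PARP1 had no FLAG-ZMYND8 peak over 3 kb from the TSS. The GC content of these 6 peaks was 50.9 to 57.5%, against 53.9 to 70.3% for the 14 at the TSSs, so the ranges overlapped.

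**Figure D3:**
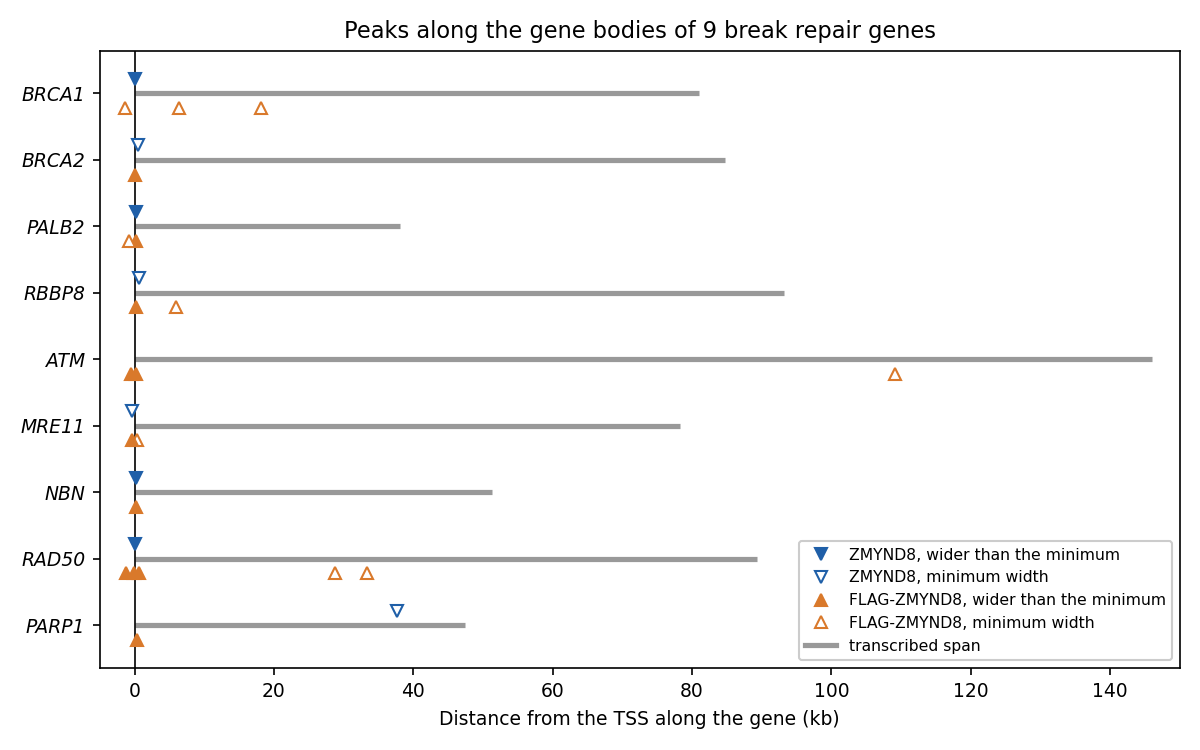
Peaks along the 9 repair genes, with the distance from the TSS in kb on the x axis, the transcribed span in grey, ZMYND8 peaks as blue and FLAG-ZMYND8 peaks as orange triangles, open where the peak is at the minimum width of its list. Filled triangles are found only next to the TSS, and the 7 peaks farther than 3 kb inside the genes are all open.

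The promoters were compared over 300 bases, 250 before and 50 after the TSS. Their GC content ranged from 49.0% at NBN and 53.3% at BRCA1 to 70.0% at PARP1, with a median of 63.7% over all promoters. The ratio of observed to expected CpG was 0.80 at BRCA1 and 0.81 at RAD50 up to 1.1 at NBN, against a median of 0.77. A promoter was taken as GC- and CpG-rich from a GC content of 55% and a ratio of 0.65. This held for 7 of the 9, all but BRCA1 and NBN, against 58.9% of all genes. Among all genes with such a promoter, 48.8% had a ZMYND8 and 78.8% a FLAG-ZMYND8 peak at the TSS. Among the 7 members with one, ZMYND8 was found at 5 and FLAG-ZMYND8 at 7. PARP1 and ATM, with 70.0% and 64.3% GC, lacked a ZMYND8 peak, and NBN and BRCA1, with the lowest GC content, had one, so presence of the peak did not follow the order of GC content within the 9.

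The same 300 bases were searched on both strands for letters of common promoter motifs. CCAAT was found at BRCA1, PALB2, ATM and MRE11, 4 of the 9, against 35.9% of 20094 promoters. All 4 have a head-to-head partner, but so does BRCA2, which has no CCAAT. The share with CCAAT among all head-to-head promoters was not counted, so a link was not tested. CCGGAA, the core of ETS factor sites, was found at BRCA2, PALB2, ATM, MRE11 and RAD50, 5 of 9 against 22.6%. GGGCGG, the core of Sp1 sites, was found at RBBP8, MRE11, RAD50 and PARP1, 4 of 9 against 61.0%. TTTNNCGC, letters of E2F sites, was found only at NBN, against 8.73%. TGACGTCA (2.69% of promoters), GCATGCGC (4.24%), AAGATGGC (4.03%) and TATAAA (9.82%) were found at 0 of the 9, and no match overlapped a match of another motif. No motif was common to the 7 genes with a ZMYND8 peak. A match is a stretch of letters and not a bound site.

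Of 45 other genes of break repair, 18 had a ZMYND8 and 35 a FLAG-ZMYND8 peak at the TSS, that is 40.0% and 77.8%, beside the 35.2% and 59.6% of all protein-coding genes given above. Both lists had one at 16 of the 45, against 30.4% of all genes. The peaks overlapped at 13 of these 16, against 69.3% of all genes with a peak of each. In the remaining homologous recombination group, ZMYND8 was found at 7 of 19 TSSs and FLAG-ZMYND8 at 13. End joining genes gave 6 and 9 of 11, and signalling genes 5 and 10 of 11. None of the 4 genes of the PARP family and ADP-ribose turnover (PARP2, PARP3, PARG and HPF1) had a ZMYND8 peak at the TSS, nor had PARP1, whereas FLAG-ZMYND8 was found at 3 of these 4 TSSs. With 4 genes the count of 0 cannot be set against the share of all genes. Of these 45 genes, the widest ZMYND8 peaks lay at PRKDC, the catalytic subunit of the DNA-dependent protein kinase (1300 bp), and at XRCC2, a homologous recombination gene (905 bp). ATR, which encodes a kinase of damage signalling, had a FLAG-ZMYND8 peak of 871 bp, among the 3 widest. These ZMYND8 peaks at PRKDC and XRCC2 were wider than each of those at the TSSs of the 9 genes, whereas the 1058 bp FLAG-ZMYND8 peak of RBBP8 was wider than all FLAG-ZMYND8 peaks at the TSSs of the other 45 genes. Within 3 kb of the TSS, ZMYND8 without FLAG-ZMYND8 was found at EXO1, an exonuclease of end resection (198 bp, 218 bp upstream), and at XRCC1, a scaffold of single-strand break repair (151 bp, 22 bp upstream). These are 2 of the 45 genes. Over all protein-coding genes 35.2% had a ZMYND8 peak and 30.4% peaks of both lists, so ZMYND8 alone was uncommon there too. At 8 of the 45 genes no peak of either list lay within 3 kb of the TSS, among them RAD52, RPA1, RPA3, ABRAXAS1, XRCC4, KAT5 and PARG. Of all protein-coding genes, 64.8% had no ZMYND8 and 40.4% no FLAG-ZMYND8 peak there. The share with neither was not counted, so lacking both is not a trait of these genes. Farther inside the gene, RAD52 held 1 ZMYND8 peak, RPA1 and RPA3 held 3 FLAG-ZMYND8 peaks each, and EXO1 held 1 peak of each list.

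**Figure D4:**
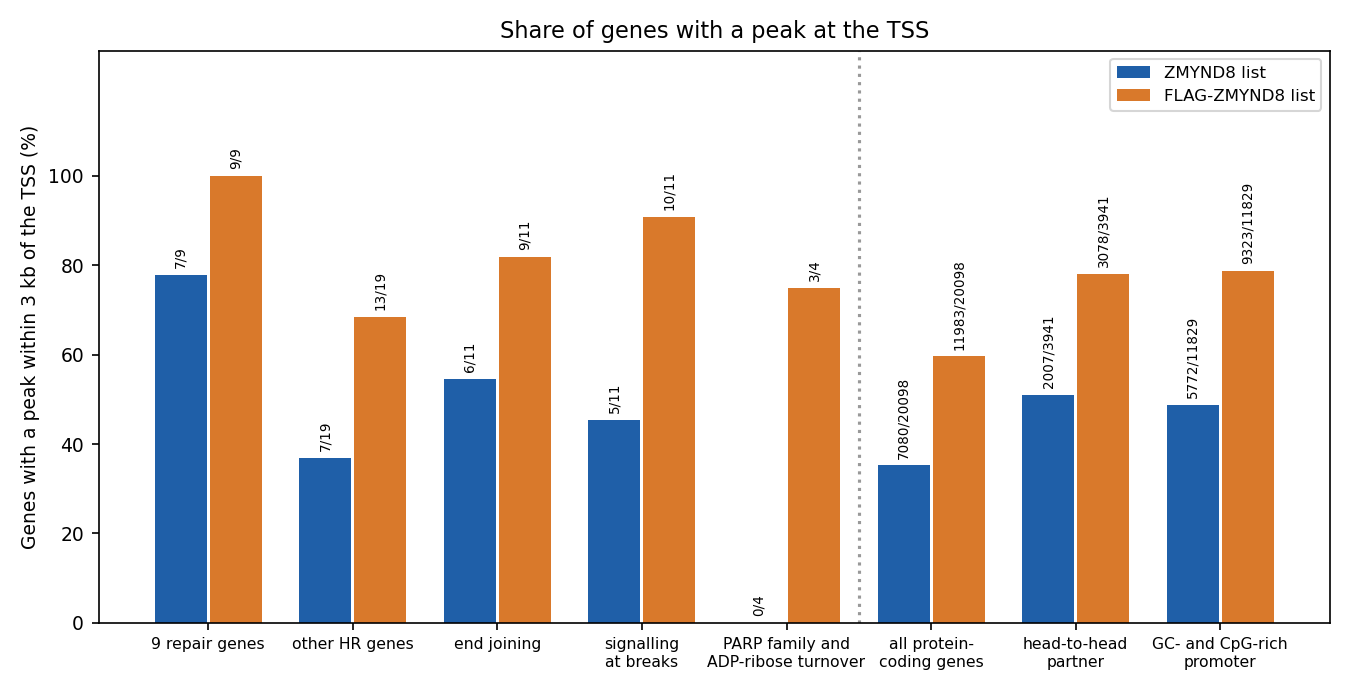
Share of genes with a peak within 3 kb of the TSS (y axis, %) in the ZMYND8 (blue) and FLAG-ZMYND8 (orange) lists, for the 9 repair genes and 4 groups of other repair genes left of the dotted line and for all protein-coding genes and 2 subsets of them right of it; the counts stand on the bars. The 9 repair genes give 7 of 9 and 9 of 9, against 35.2% and 59.6% of all genes. The group of the PARP family and ADP-ribose turnover has 4 genes and no ZMYND8 bar, too few genes to set against the share of all genes.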

How the data were processed

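Peaks of the ZMYND8 and FLAG-ZMYND8 ChIP-seq were analysed. Reads had been aligned to hg19 by the authors (BWA-MEM, and BWA 0.7 in the submitters' processing notes), and HOMER is named for the profiles. How peaks were called and replicates combined is not given in the sources used here. The authors deposited 1 list per ChIP with 6 columns, in which the score is 1 in every row. Positions fit the GRCh37 chromosome lengths.

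Gene models came from GENCODE release 44 on GRCh37. The TSS was the start of the MANE Select transcript (all 9 genes), otherwise of the Ensembl canonical transcript or the gene record, since the 5′ end of the gene record lies 44881, 135067 and 18561 bp from it at BRCA1, RBBP8 and NBN. Peaks were assigned to a TSS by their midpoint, with a window of 3 kb on each side. The gene body was the span of the same transcript. Sequences came from the GRCh37 genome. Functions were tested on simulated lists, and Python 3.11.15, numpy 2.4.6, pysam 0.24.0 and matplotlib 3.10.9 were used. Members, gene lists and motifs were chosen with earlier results of these data known. The text names all 9 members, their head-to-head partners and, of the other repair genes, those with no peak, with a ZMYND8 peak alone or with the 3 widest peaks of a list. Some genes that this rule covers are not reported here. PARP2, PARP3 and HPF1 were named outside it, for their roles. No test was made, because there is 1 list per ChIP, and shares are set beside those of all protein-coding genes. Alternatives were other windows, TSSs, widths and overlaps.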

Additional observations from a re-analysis of the deposited data

How the results depend on the processing

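No paired analysis was possible because neither list tells its replicates apart, which also kept single replicates from being left out. With only peaks above the minimum width there was a ZMYND8 peak at the TSS of 4 genes, peaks of both lists at 3, 3 overlapping ZMYND8 peaks, and 4 ZMYND8 and 7 FLAG-ZMYND8 peaks in the gene bodies, by construction, where all peaks had given 7, 7, 5, 7 and 14. FLAG-ZMYND8 was then left at 8 TSSs. The shares of all genes with a wider peak were 23.7% for ZMYND8, 47.9% for FLAG-ZMYND8 and 18.9% for both. Within 500 bp, 4 genes had peaks of both lists, against 16.5% of all genes. Without the 3 kb next to the TSS the gene bodies held 1 ZMYND8 and 6 FLAG-ZMYND8 peaks. With the longer span of the gene record they held 22 FLAG-ZMYND8 peaks. With the 5′ end of the gene record as TSS, 5 genes had a ZMYND8 and 8 a FLAG-ZMYND8 peak, against 34.1% and 58.1%. At BRCA1 this 5′ end lies 44881 bp from the TSS used above, so the peaks counted there are other peaks. The same holds for the FLAG-ZMYND8 peak counted at NBN, 18561 bp away. With the start of any transcript 8 and 9 genes had one, against 40.2% and 65.0%, since the exon peak of PARP1 then counts. The other counts over the 9 genes stayed within 1.5 times of the value given. Of 126 counts of peaks at single TSSs under an alternative, 103 stayed within 1.5 times and 23 did not. How deep the libraries were is unknown, so nothing can be read from an absent peak.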

Other observations

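NBR2, the partner of BRCA1, held 3 FLAG-ZMYND8 peaks over 3 kb from its TSS, ZAR1L and NPAT 1 each, and DCTN5 and ANKRD49 none, and none of the 5 partners held a ZMYND8 peak at this distance. These counts were singled out after they had been seen. Over all protein-coding genes, too, fewer had a ZMYND8 than a FLAG-ZMYND8 peak this far inside, by the shares given above. Most of them had no such ZMYND8 peak. With 5 partners, of which NBR2 is noncoding, the counts cannot be set against those shares.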
